A study of Mus musculus with 8 samples.

Results

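In the droplet data from the adult mouse dentate gyrus, 770 of 8087 barcodes with at least 200 genes held almost none of 5 noncoding RNAs known to stay mostly in the nucleus. These barcodes were chosen because the summed UMIs (unique molecular identifiers, 1 per captured transcript) of Malat1, Neat1, Meg3, Kcnq1ot1 and Snhg11 made up less than 0.25% of all their UMIs. They carried the mRNAs of recognisable cell types, and 3 groups of them are described here: those with neuroblast genes (87 barcodes), those with endothelial genes (86 barcodes) and those with astrocyte markers (503 barcodes). Against barcodes of the same cell type with a nuclear RNA share of at least 0.5%, called cells below, they had fewer UMIs, a higher share of mitochondrial transcripts (less so in TBI endothelium against cells closer in depth), a higher share of ribosomal protein mRNA and, in the neuroblast and endothelial groups above all, less immediate early gene mRNA. The word pieces is used below as a short name for barcodes that met the rule, and not as a statement of what the droplet contained.

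Malat1 and Neat1 are long noncoding RNAs that are held in nuclear speckles and paraspeckles, Kcnq1ot1 is a chromatin-bound antisense RNA of an imprinted locus, Meg3 is an imprinted noncoding RNA found mainly in the nucleus of neurons, and Snhg11 is a noncoding snoRNA host gene of neurons. A droplet that captures a whole cell normally receives these RNAs with the cytoplasmic mRNA. Newborn neurons extend long processes that contain ribosomes, mitochondria and mRNA, and endothelial cells of brain capillaries are thin sheets joined by tight junctions. Enzymatic dissociation of brain tissue is known to break some of these cells.

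The samples came from 8-week-old male Nestin-GFP mice, which carry GFP (green fluorescent protein) under control of the Nestin promoter, a gene of neural stem and progenitor cells that is also active in vascular cells. The labels and the study's methods give different numbers of animals per group. Control mice received a sham craniotomy and TBI mice a unilateral controlled cortical impact, a model of traumatic brain injury, and both were taken on day 15 after surgery. Ipsilateral dentate gyri were dissociated and pooled by group. The study's methods place the pooling after dissociation and its results text before it. The pools were sorted for GFP with gates against debris, doublets and propidium iodide-positive cells before 10x Genomics 3′ v3 capture. Each condition is thus 1 library and no value below has a replicate check. Intervals given below are 95% intervals (Poisson for sums, Clopper-Pearson for shares) and cover counting error only.

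The Control library held 3049 barcodes with at least 200 genes and the TBI library 5038, from 24723113 and 31543330 UMIs in all barcodes of each table. In Control, 352 barcodes were under the 0.25% limit, or 11.5% (10.4 to 12.7), and in TBI 418, or 8.30% (7.55 to 9.09). The ratio of the TBI share to the Control share was 0.719, with a log-normal approximate interval of 0.628 to 0.822. The pooled share was thus lower in the TBI library by more than its counting error, but the libraries also differed in their mix of cell types. The astrocyte group described below, the one of the 3 groups with the most pieces, made up 27.5% of the Control and 15.2% of the TBI barcodes. With the TBI share of each group weighted by the Control numbers of barcodes, the TBI share was 12.1% and the ratio 1.05. That value rests on the astrocyte group, the only one with a higher share in TBI (34.9% against 28.2% in Control). Its direction depended on its definition, as given below. The TBI share was lower in neuroblast (3.02% against 5.62%), endothelial (8.41% against 9.83%) and remaining barcodes (2.37% against 3.77%). What separates the libraries (injury, the separate dissociation and sort, depth) cannot be told apart with 1 library each. With a minimum of 2000 UMIs in place of 200 genes the shares were 7.99% and 3.24%, and with a rule of 0 UMIs of the 4 RNAs other than Malat1 the ratio reversed to 1.08 (0.994 to 1.18).

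The limit fell in a sparsely filled stretch between 2 groups of barcodes, more clearly so in Control. The median nuclear RNA share was 0.0421% in the Control pieces and 6.08% in the Control cells, against 0.0446% and 5.60% in TBI. Between 0.25% and 0.5% lay 21 Control and 61 TBI barcodes, which were left out of both sides. Just inside the limit, from 0.20% to 0.25%, there were 6 Control and 16 TBI barcodes, and just outside it, from 0.25% to 0.30%, there were 4 and 26. No rule RNA at all was counted in 110 of the 352 Control pieces and in 163 of the 418 TBI pieces. Summed over barcodes, the Control pieces together held 437 UMIs of the 5 RNAs where the cells' share would have given 62329, and the TBI pieces held 411 where it would have given 48433.

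**Figure D1:**
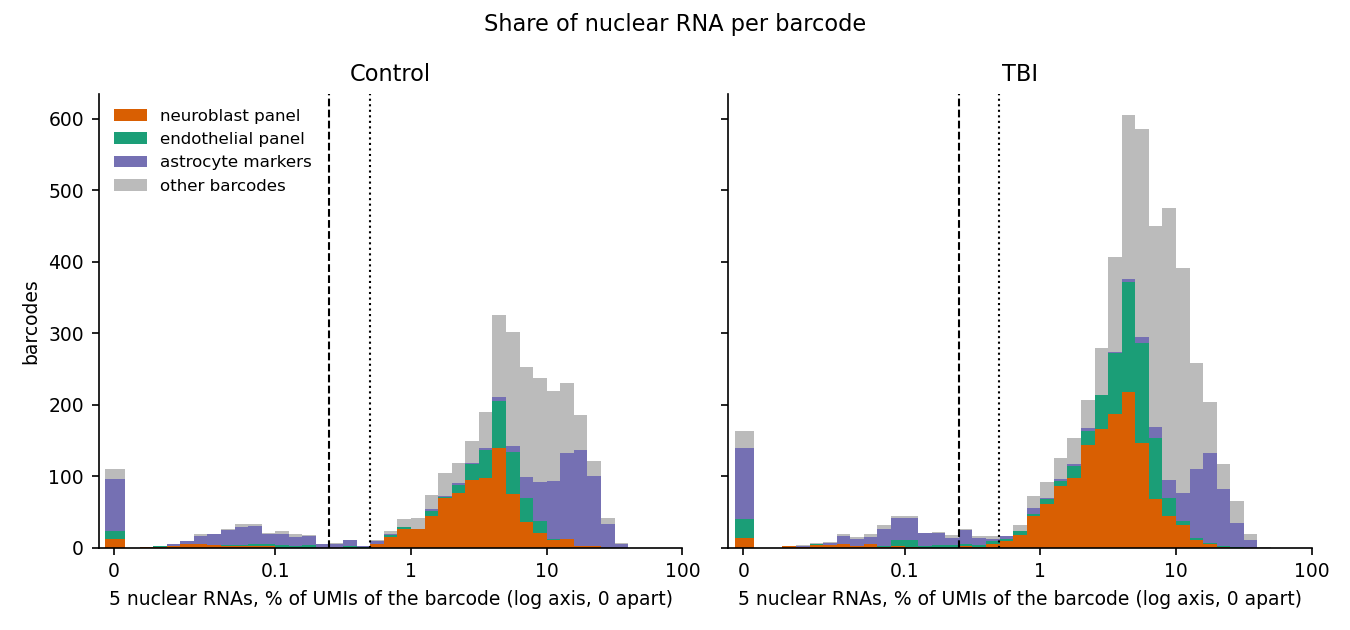
Barcodes by the share of their UMIs from Malat1, Neat1, Meg3, Kcnq1ot1 and Snhg11 (log axis in %, barcodes with 0 at the left), stacked by cell-type panel, for the Control and the TBI library. The dashed line marks 0.25% and the dotted line 0.5%, and only 21 Control and 61 TBI barcodes lie between them.

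The 5 RNAs differed in how much each weighed in the rule. Malat1 (chr19:5795690-5802672, minus strand, GRCm38) supplied nearly all of the counts. In neuroblast pieces it was counted 54 times in Control and 43 times in TBI, in 31 and 28 of the pieces, against 299095 and 392441 UMIs in the neuroblast cells. Kcnq1ot1 (chr7:143203458-143296549, minus strand) had 0 UMIs in the neuroblast pieces of either library, while 698 of 758 Control and 1128 of 1349 TBI neuroblast cells held at least 1. Neat1 (chr19:5824708-5845478, minus strand) was counted 2 times in Control and 0 times in TBI neuroblast pieces. Only 75 of 758 Control and 116 of 1349 TBI neuroblast cells held it. In endothelial pieces Neat1 had 4 UMIs in Control and 0 in TBI, against 1089 and 1718 in the endothelial cells. Meg3 (chr12:109541001-109571726, plus strand) had 0 UMIs and Snhg11 (chr2:158375638-158386145, plus strand) at most 1 UMI in the neuroblast pieces of each library. Few neuroblast cells held them either, with Meg3 in 2.77% of Control and 4.67% of TBI cells and Snhg11 in 2.90% and 3.48%. The low counts of Neat1, Meg3 and Snhg11 in the neuroblast pieces therefore say little. These levels are what the rule selected and are given as a description. RNA free in the cell suspension can also give UMIs to any droplet, and its part in them was not tested.

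Pieces were smaller libraries than cells in every group. Over all members the median was 2224.5 UMIs in Control (lowest 503, highest 25650) and 1442.5 in TBI (518 to 13124), against 8264 and 6376 in the cells. Members held 4.17% of the Control UMIs and 2.64% of the TBI UMIs. In Control 208 members and in TBI 139 had at least 2000 UMIs. No member barcode occurred in both libraries. Scrublet, a doublet caller, marked 38 Control and 110 TBI barcodes (1.25% and 2.18%), of which 5 and 1 were members. All were left in.

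The neuroblast group was set by the summed share of Dcx, Igfbpl1, Neurod1, Sox11 and Tubb3, with a minimum of 0.3% of UMIs. Dcx encodes doublecortin, the microtubule-associated protein of migrating neuroblasts, Neurod1 and Sox11 are transcription factors of newborn neurons, Tubb3 is a neuronal beta tubulin, and Igfbpl1 is a secreted-protein gene of immature dentate granule neurons. In Control 45 of 803 such barcodes were pieces (5.60%, 4.12 to 7.43), and in TBI 42 of 1400 (3%, 2.17 to 4.03). The ratio of the shares was 0.535 (0.355 to 0.808), and 1.41 under the rule without Malat1. No neuroblast piece held an Flt1, Cldn5, Pecam1 or Cdh5 UMI in either library, and no piece passed both panels. Both were rare among all barcodes too. Each of these genes was found in 0.396% to 2.64% of Control and 0.593% to 3.78% of TBI neuroblast cells, and 10 of all 8087 barcodes passed both panels. Their absence from the pieces therefore says little.

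The panel genes themselves were not equally represented in the pieces. Per 1000000 of all UMIs, Sox11 stood at 1586 in Control and 1439 in TBI pieces, against 3702 and 3695 in the cells. Dcx stood at 298 and 315 against 664 and 687, and Neurod1 at 529 and 553 against 756 and 741. Tubb3 stood at 890 and 1259 against 781 and 824, and Igfbpl1, found in 45 of 45 and 42 of 42 pieces, at 2489 and 2789 against 2717 and 2841. The values of Dcx, Sox11 and Neurod1 were lower in the pieces of both libraries and those of Tubb3 were not. Igfbpl1 was slightly lower in both on this scale. Without rule and mitochondrial RNAs in the total its ratios were 0.955 (0.876 to 1.04) and 1.03 (0.937 to 1.14), with intervals that included 1. Because these genes chose the barcodes, their summed share in each piece is bounded from below by the rule, though not the level of a single gene.

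Neuroblast pieces were shallow and rich in mitochondrial transcripts. The median piece held 4070 UMIs in Control (lowest 1605, highest 12554) and 3367.5 in TBI (2179 to 8172), against 11716.5 and 8763 in the cells, a ratio of 0.347 and 0.384. It held 1601 and 1351 genes against 3917.5 and 3295. Only 1 Control piece and no TBI piece lay above the cells' median depth. The 13 mRNAs encoded in mitochondrial DNA made up a median of 13.7% of UMIs in Control pieces (12.1 to 14.9) and 14.1% in TBI pieces (12.3 to 15.8), against 5.98% and 6.16% in the cells, and 97.8% and 97.6% of the pieces lay above the cells' median. In absolute numbers the median piece held nearly as many mitochondrial UMIs as the median cell, 632 against 722 in Control and 507 against 538 in TBI. The numbers of UMIs outside the mitochondrial, ribosomal protein and rule genes were further apart, at 2719 against 9138.5 and 2154 against 6820.

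Endothelial pieces, set by Flt1, Cldn5, Pecam1 and Cdh5 at 0.1% of UMIs or more, showed the same contrast at lower depth. Flt1 is a VEGF receptor, Cldn5 the tight junction claudin of the blood-brain barrier, and Pecam1 and Cdh5 are adhesion proteins of endothelial junctions. In Control 29 of 297 such barcodes were pieces (9.76%, 6.64 to 13.7) and in TBI 57 of 686 (8.31%, 6.35 to 10.6). The ratio of the shares was 0.851, and its interval of 0.556 to 1.303 included 1. The median piece held 1005 UMIs in Control (539 to 6520) and 926 in TBI (536 to 4100), against 4815 and 3692 in the cells. The median mitochondrial share was 10.2% and 10.9% against 4.64% and 4.35%, and 93.1% of the Control and 100% of the TBI pieces lay above the cells' median. The ratio of these medians was 2.20 and 2.50, but 1.76 and 1.18 against cells in the depth range of the pieces, which is defined below. The median ribosomal protein share was 16.2% and 13.3% against 8.25% and 8.31%.

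**Figure D2:**
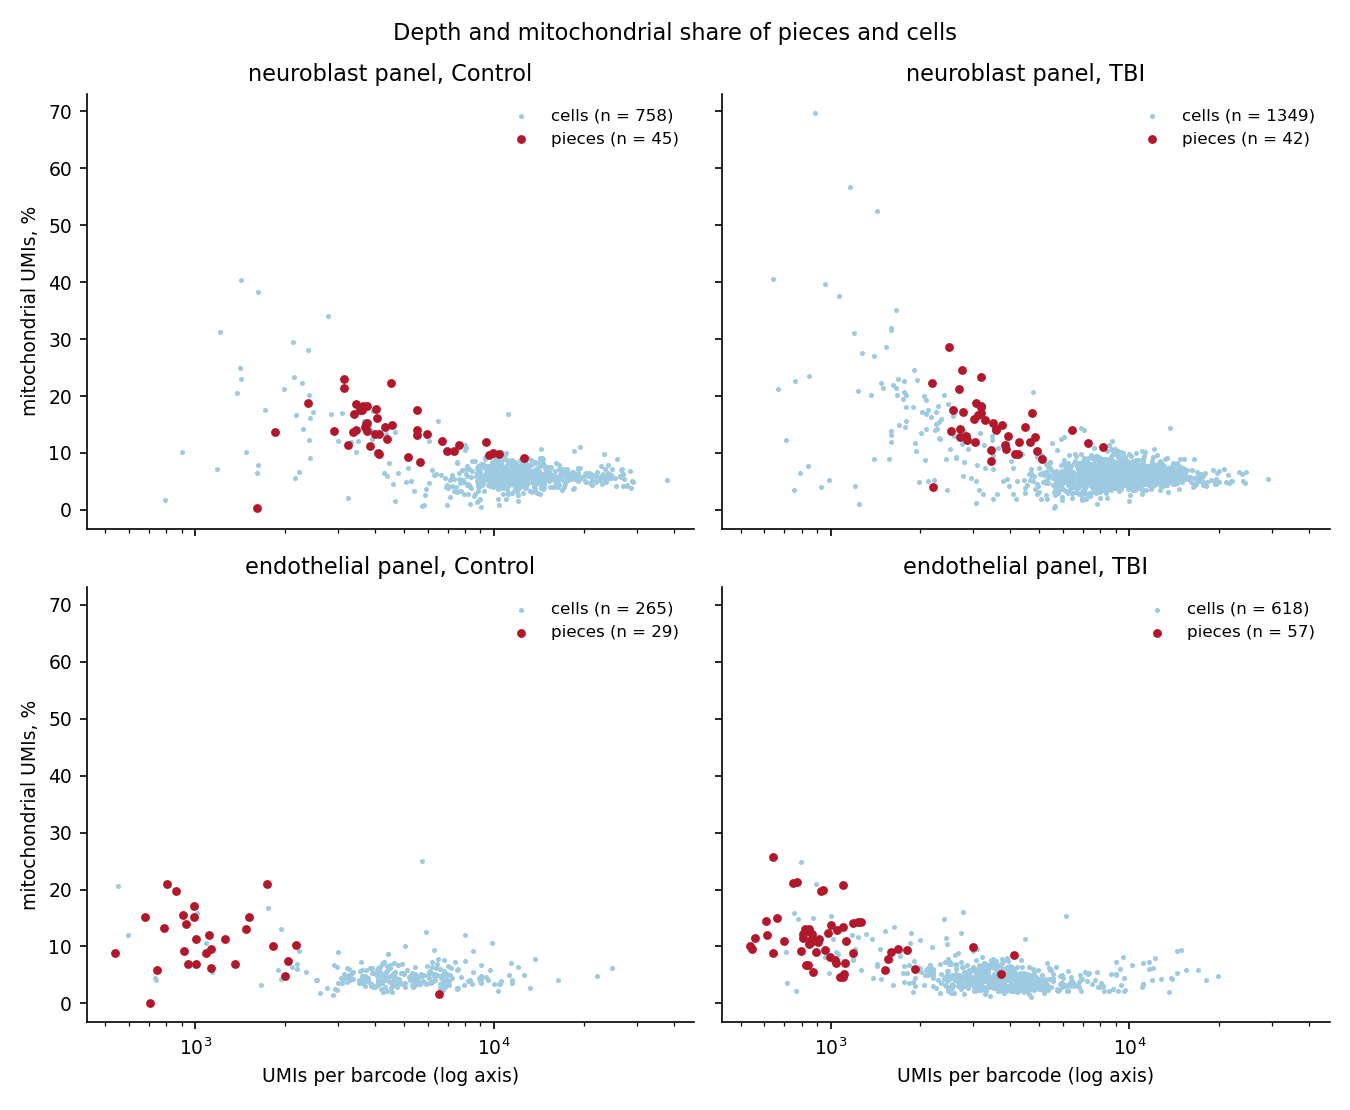
UMIs per barcode (log axis) against the share of UMIs from the 13 mitochondrially encoded mRNAs (%), for pieces (red) and cells (blue) of the neuroblast and endothelial panels in each library, 1 point per barcode. Pieces sit to the left of and above the main cloud of cells, with medians of 13.7% and 14.1% against 5.98% and 6.16% in the neuroblast panel.

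Depth moved together with every contrast between pieces and cells. When each neuroblast barcode was thinned at random to 2000 UMIs, the median number of genes was 963 in Control and 943 in TBI pieces against 1198 in the cells of both libraries, with 2 and 0 pieces and 14 and 51 cells too shallow to use. At 500 UMIs endothelial pieces held 354 and 362 genes against 381 and 384 in cells. The median piece thus held fewer different genes than the median cell at equal depth in these panels, but not in the astrocyte group described below, with 330 and 334 genes against 321.5 and 324 at 500 UMIs. The part of depth in the gene contrasts below was not tested beyond a comparison with cells in the depth range of the pieces, given beside the counts. It was made in the neuroblast and endothelial panels only. The cells used lay between the lowest and the highest decile of the pieces' UMIs, and they were still deeper: the ratio of the median UMIs of pieces to theirs was 0.565 in Control and 0.889 in TBI neuroblasts, and 0.604 and 0.809 in the endothelial panel.

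For gene levels, UMIs were summed over pieces and over cells and expressed as CPM, the counts per 1000000 UMIs left after the 5 rule RNAs and the 13 mitochondrial mRNAs were removed. A gene was tested where at least 10 UMIs were expected in the pieces of each library, and called where pieces and cells differed by at least 2-fold in the same direction in both libraries. In the neuroblast panel 2686 genes were tested, and 7 (0.261%) were higher and 452 (16.8%) lower in the pieces. The median log2 ratio of pieces to cells over all genes tested was -0.22 in Control and -0.24 in TBI. It depended on the minimum of expected UMIs, at -0.42 in both libraries with 5 and at 0.17 and 0.10 with 30. Scaled to a median ratio of 1, 54 genes were higher and 336 lower, so 13.8% of the called genes were higher where 1.53% were under the first scale. Against cells in the depth range of the pieces 88 of 2507 genes tested were higher and 486 lower. Since the barcodes were selected on RNAs of the same cells, these counts describe the contrast and test nothing.

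Among the lists drawn in the plot of gene lists, immediate early genes had the lowest median in both panels. These genes encode transcription factors and feedback regulators that are switched on within minutes by activity or by tissue dissociation, and their mRNAs are short-lived. In neuroblast pieces 9 of 15 listed genes were tested, 8 of them were lower (against 16.8% of all genes tested) and none higher, and the median log2 ratio was -3.73 in Control and -3.19 in TBI (-2.50 with genes at 0 UMIs set to the floor of 3 UMIs per library). Egr1 had 16 UMIs in the Control and 5 in the TBI pieces, against 9310 and 8286 in the cells, a ratio of 0.0751 (0.0429 to 0.122) and 0.0490 (0.0159 to 0.114). Fos had 4 and 3 UMIs against 5109 and 5293, a ratio of 0.0342 (0.00932 to 0.0876) and 0.0460 (0.00949 to 0.135). Jun had 18 and 16 UMIs, a ratio of 0.120 and 0.156, and Ier2 had 14 and 13, a ratio of 0.110 and 0.176. The intervals of Egr1 and Fos lay far under a ratio of 0.5 in both libraries. Jund, which unlike its relatives is expressed without stimulation in most cells, was not called: its 115 and 93 UMIs gave ratios of 0.642 (0.530 to 0.772) and 0.756 (0.610 to 0.928).

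In endothelial pieces 566 genes were tested, of which 2 (0.353%) were higher and 64 (11.3%) lower. All 12 immediate early genes tested were among the 64, with a median log2 ratio of -3.32 in Control and -3.003 in TBI against -0.24 and 0.06 over all genes. Against cells in the depth range of the pieces 5 of the 7 then tested were lower, beside 27 of all 485 genes. Fosb, a partner of Jun proteins, had 0 UMIs in the pieces of both libraries and 848 and 1499 in the cells, so it was at least 7.67-fold lower in Control and 12.3-fold lower in TBI. Fos had 2 and 3 UMIs against 2274 and 4561, a ratio of 0.0324 (0.00392 to 0.117) and 0.0266 (0.00549 to 0.0778). Junb had 4 and 7 UMIs, with ratios of 0.0714 (0.0194 to 0.183) and 0.0544 (0.0218 to 0.112). The low levels thus held for several members of the AP-1 family in both libraries. Klf2, a flow-responsive transcription factor of endothelium, had 31 and 48 UMIs and a ratio of 0.241 (0.164 to 0.342) and 0.281 (0.207 to 0.373). Jun reached 0.0399 (0.0129 to 0.0931) in Control and 0.166 (0.113 to 0.236) in TBI. These intervals did not overlap between the libraries, nor did those of Bsg and Itm2a given below. How many of all genes tested shared this was not counted, so it is not read as particular to Jun. Jund, with 17 and 33 UMIs, was lower here, at 0.140 and 0.196.

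**Figure D3:**
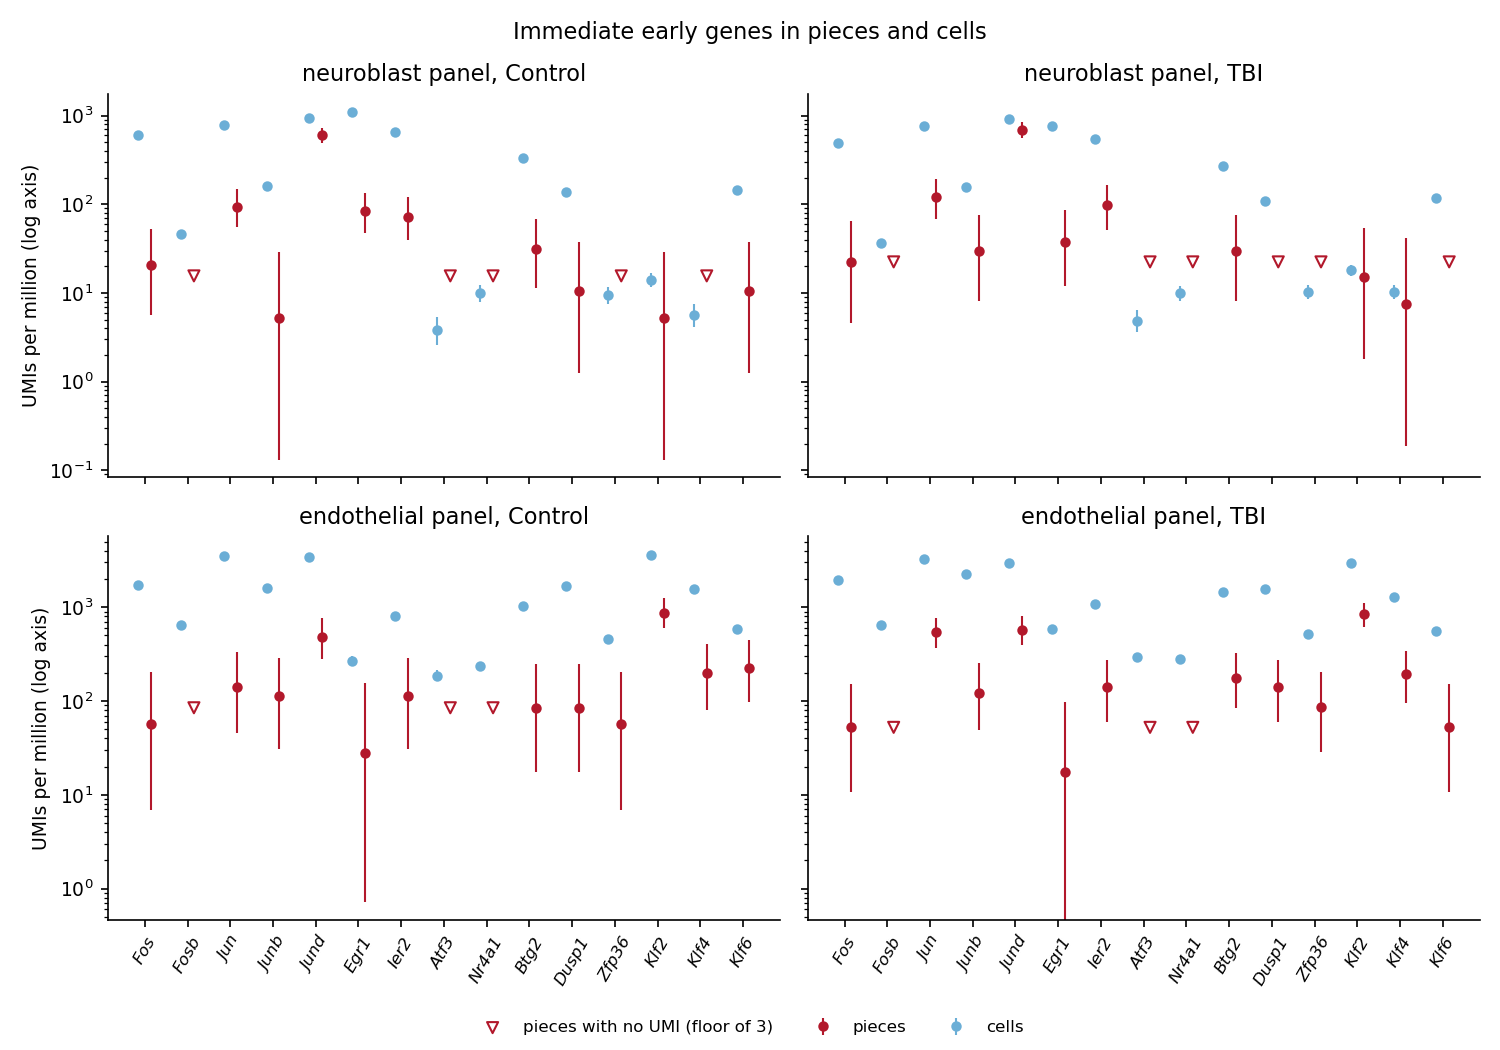
Level of 15 immediate early genes (CPM without rule and mitochondrial genes, log axis) in pieces (red) and cells (blue) of each panel and library, with 95% Poisson intervals of the counts. Open triangles mark genes without a UMI in the pieces, drawn at the floor of 3 UMIs, and all 12 tested genes of the endothelial panel lie below the cells in both libraries. Against cells in the depth range of the pieces 5 of 7 were lower there, beside 27 of all 485 genes tested.

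The genes lowest in endothelial pieces by the naming rule included Dusp1, Btg2 and Ier2, which belong to the immediate early list already counted, and Hspa1a, Ier3, Apold1 and Adamts1, which do not. Hspa1a, the inducible cytosolic Hsp70, had 1 UMI in each library against 2080 and 2137 in the cells, a ratio of 0.0177 (0.000448 to 0.0988) and 0.0189 (0.000479 to 0.106). Dusp1, a phosphatase of MAP kinases, had 3 and 8 UMIs and ratios of 0.0507 (0.0105 to 0.148) and 0.0901 (0.0389 to 0.178). Btg2, an antiproliferative gene induced by stress, had 3 and 10 UMIs and ratios of 0.0826 (0.0170 to 0.242) and 0.119 (0.0572 to 0.220). Ier2, Ier3, Apold1 and Adamts1 lay between 0.0286 and 0.140 where a UMI was counted. Heat shock genes as a list were divided: 3 of 6 tested were lower, against 11.3% of all genes tested, while Hsp90ab1, a constitutive Hsp90, had ratios of 0.918 (0.738 to 1.13) and 0.896 (0.752 to 1.06). In neuroblast pieces none of 6 heat shock genes was called, against 16.8% lower and 0.261% higher among all genes tested there.

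mRNAs of splicing regulators, several of which are known to retain introns and to stay in the nucleus until they are spliced, formed the next list. In neuroblast pieces 10 of 15 were lower (against 16.8% of all genes tested) and none higher, all 15 had ratios under 1 in both libraries (against 1378 of all 2686 genes tested), and the median log2 ratio was -2.01 in Control and -1.92 in TBI. Pnisr, a serine- and arginine-rich splicing protein, had 8 and 3 UMIs against 4821 and 5591 in the cells, a ratio of 0.0725 (0.0313 to 0.143) and 0.0436 (0.00898 to 0.127). Son, a core component of nuclear speckles, had 42 and 20 UMIs and ratios of 0.356 (0.256 to 0.482) and 0.264 (0.161 to 0.408). Luc7l3, a U1 snRNP-associated factor, reached 0.376 and 0.344. The RNA helicase gene Ddx5 was not called, at 0.598 (0.505 to 0.704) and 0.514 (0.415 to 0.631). In endothelial pieces 5 of 7 tested were lower, against 11.3% of all genes tested, with medians of -1.84 and -1.65. This count was 3 without hemoglobin-rich barcodes, without doublets and under the 0.1% limit, and 0 with 30 expected UMIs. Against cells in the depth range of the pieces it was 1 of the 2 then tested, beside 27 of all 485 genes. Srsf5 had 5 and 10 UMIs, a ratio of 0.280 (0.0905 to 0.656) and 0.337 (0.161 to 0.622).

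Of 15 transcription factor mRNAs of the neuroblast list that were tested, 6 were called lower and none higher, against 16.8% lower among all genes tested. In this list all 15 had ratios under 1 in both libraries, as had 1378 of all 2686 genes tested, with a median log2 ratio of -1.03 and -0.93. Tcf4, a basic helix-loop-helix partner of proneural factors, had 319 and 207 UMIs in the pieces and ratios of 0.334 (0.299 to 0.373) and 0.329 (0.286 to 0.377). Zbtb20, a zinc finger factor of the hippocampus, reached 0.410 (0.377 to 0.445) and 0.462 (0.421 to 0.505). These are abundant mRNAs and the intervals are narrow. Nfib stood at 0.488 and 0.529 and Sox4 at 0.551 and 0.609, neither called because at least 1 library was within 2-fold. In the endothelial pieces Zbtb20, Tcf4 and Nfib were the 3 genes of this list that were tested, and all 3 were lower. Of the endothelial factors tested there, 3 of 7 were lower, against 11.3% of all genes tested there: Id1, a target of BMP signalling, reached 0.166 (0.0830 to 0.298) and 0.209 (0.124 to 0.332), while Epas1, the hypoxia-inducible factor of endothelium, stood at 0.995 (0.690 to 1.39) and 1.29 (1.01 to 1.64).

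Of 8 ER chaperone mRNAs tested in the neuroblast pieces, 3 were called lower, against 16.8% of all genes tested, and 7 of 8 were under 1 in both libraries, against 1378 of 2686, with a median log2 ratio of -0.87 and -0.98. Hspa5, which encodes the chaperone BiP, had 18 and 12 UMIs against 4068 and 4807, a ratio of 0.193 (0.114 to 0.306) and 0.203 (0.105 to 0.354). Hsp90b1, the ER Hsp90, reached 0.297 (0.179 to 0.465) and 0.415 (0.241 to 0.665), and the calcium-binding chaperone Calr stood at 0.560 and 0.584. In the endothelial pieces none of 4 tested was called, against 11.3% lower and 0.353% higher among all genes tested there, with medians of -0.57 and 0.09.

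Ribosomal protein and respiratory chain mRNAs lay on the other side. In neuroblast pieces all 82 ribosomal protein genes tested were above 1 in both libraries, against 876 of all 2686 genes tested, with a median log2 ratio of 0.63 in Control and 0.75 in TBI, although none reached 2-fold in both. Rps24 had 1116 and 847 UMIs in the pieces, a ratio of 1.63 (1.53 to 1.73) and 1.78 (1.66 to 1.90). Ribosomal protein mRNA made up a median of 19.3% of UMIs in the pieces of both libraries, against 12.4% and 12.1% in the cells. In the endothelial pieces 75 of 78 such genes were above 1 in both libraries, against 197 of all 566, with medians of 0.65 and 0.75. Nuclear-encoded respiratory chain genes had medians of 0.72 and 0.69 in the neuroblast pieces, where 65 of 70 were above 1 in both libraries (against 876 of 2686) and 3 were called higher (against 0.261% of all genes tested): Ndufa4 and Cox8a of cytochrome c oxidase and Uqcr11 of complex III. Ndufa4 had 315 and 249 UMIs and ratios of 2.14 (1.90 to 2.39) and 2.43 (2.13 to 2.75). Cox4i1, at 2.03 and 1.91, just missed 2-fold in TBI.

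The remaining 4 genes called higher in neuroblast pieces belonged to no shared list. Cnih2, an auxiliary subunit of AMPA receptors, had 64 UMIs in 31 Control pieces and 38 in 24 TBI pieces, a ratio of 2.78 (2.13 to 3.59) and 2.42 (1.70 to 3.34). Pdrg1 had ratios of 2.21 and 2.18, the noncoding Gm10076 2.10 and 2.15, and Tmem258, an oligosaccharyltransferase subunit, 2.03 and 2.12. The translation list had a median of 0.48 and 0.51 with 14 of 15 genes above 1 in both libraries, against 876 of 2686, led by Tpt1 at 1.55 and 1.67. Of 22 microtubule and growth cone genes tested, 1 was lower and none higher, against 16.8% and 0.261% of all genes tested. Their medians were 0.40 and 0.31. In both libraries 13 were above 1, against 876 of 2686, and 6 were under 1, against 1378 of 2686. Tuba1a, the main alpha tubulin of young neurons, had 1953 and 1275 UMIs and ratios of 1.47 (1.40 to 1.54) and 1.51 (1.43 to 1.60). Tubb2b reached 1.48 and 1.78. The actin list had medians of 0.12 and 0.31, the synaptic list -0.17 and 0.06 and the heat shock list 0.21 and 0.16. Over all genes tested these medians were -0.22 and -0.24, and no direction is given for these last 3 lists.

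**Figure D4:**
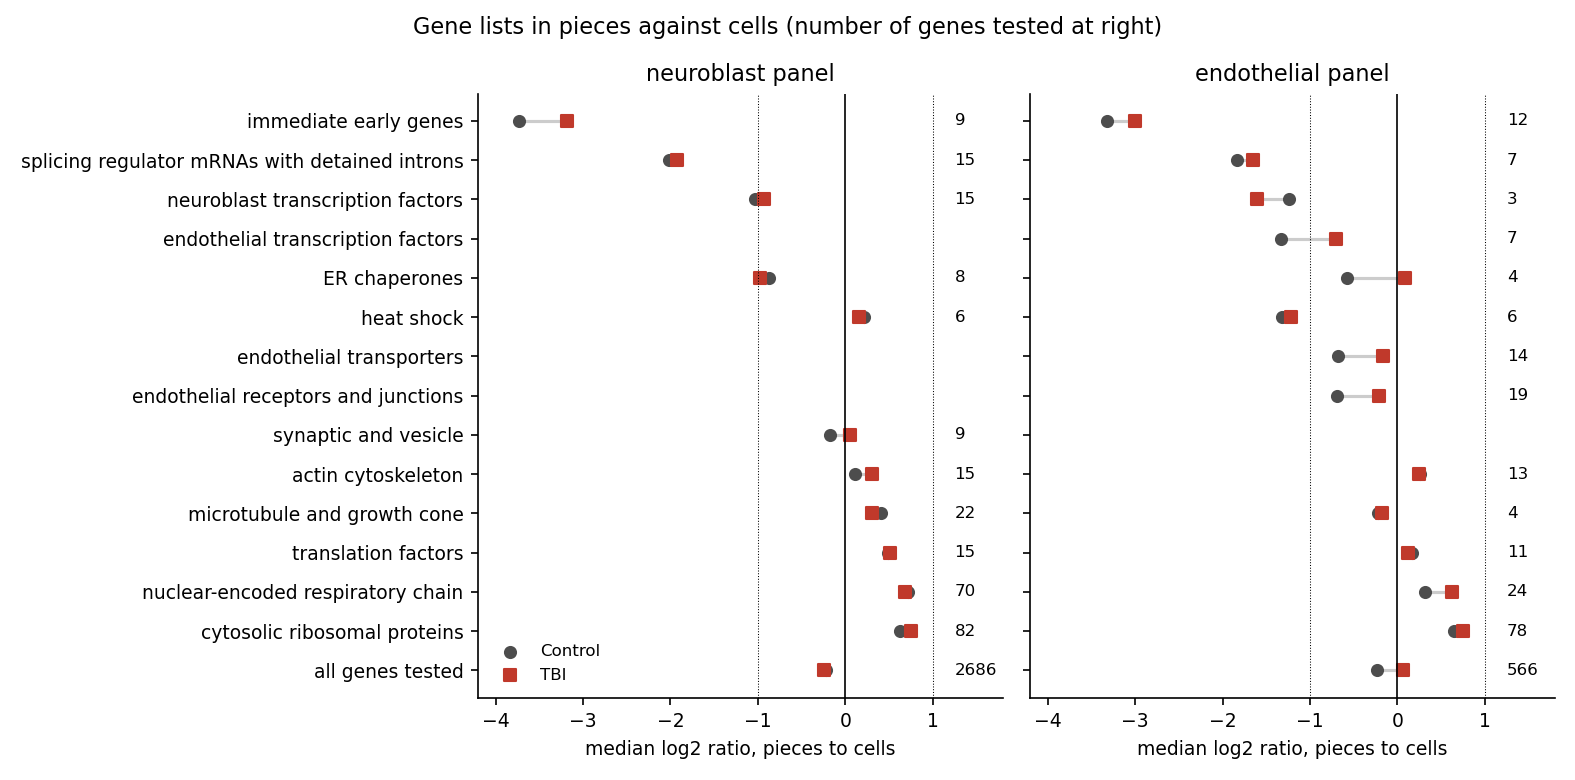
Median log2 ratio of pieces to cells for each gene list (points, Control black and TBI red), with the number of genes tested at the right and all genes tested in the lowest row, for both panels. Immediate early genes lie at -3.73 and -3.19 in the neuroblast panel and ribosomal proteins at 0.63 and 0.75, and the dotted lines mark 2-fold.

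Besides the rule RNAs, other nuclear noncoding RNAs did not all behave alike. Of 16 listed, 9 were in the files and 3 were tested in the neuroblast panel. Miat, a noncoding RNA of nuclear bodies in neurons, had 0 UMIs in the pieces of both libraries against 1024 and 1213 in the cells, and was at least 7.81-fold lower in Control and 4.98-fold lower in TBI. Pantr1 had 55 and 22 UMIs, a ratio of 1.21 (0.910 to 1.58) and 0.735 (0.460 to 1.12), and Tug1, which is found in both nucleus and cytoplasm, 17 and 7 UMIs, a ratio of 1.04 (0.602 to 1.68) and 0.674 (0.270 to 1.39). The intervals of Pantr1 and Tug1 included 1 in both libraries. Summed over the 9 RNAs, the ratio was 0.715 (0.560 to 0.899) in Control and 0.463 (0.314 to 0.657) in TBI neuroblast pieces, but 1.41 (1.299 to 1.52) and 1.90 (1.73 to 2.09) in the astrocyte pieces described below. There Pantr1 was called higher, with 795 and 674 UMIs and ratios of 2.23 (2.05 to 2.43) and 3.19 (2.87 to 3.55), while Rmst was called lower, with 3 and 4 UMIs and ratios of 0.0194 (0.00399 to 0.0570) and 0.0408 (0.0110 to 0.105). Among the other genes lowest in neuroblast pieces, the bicarbonate transporter gene Slc4a7 (at least 5.70- and 4.61-fold lower), Pou2f2 (4.36 and 3.58) and Nbeal1 (4.25 and 3.41) also had 0 UMIs in both libraries. Krit1 had 1 UMI in each, a ratio of 0.0384 (0.000970 to 0.214) and 0.0502 (0.00127 to 0.280). Hes5, a Notch target of radial glia, had 1 and 0 UMIs against 1127 and 829 in the cells. The other lowest genes by the same rule were Fos, Dock4, Rlf, Nfat5, Taf1d and Fnbp4, each with 4 UMIs or fewer in the pieces of a library.

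Gene length ordered the ratios of protein-coding genes in the neuroblast pieces. By genomic span, which includes introns, the median log2 ratio was 0.54 in Control and 0.50 in TBI for the 81 genes under 2 kb, -0.02 and -0.01 for the 472 genes of 10 to 20 kb, and -1.29 and -1.22 for the 124 genes over 200 kb. The share of genes called lower went from 3.70% to 47.6% between the shortest and the longest bin. Without ribosomal protein and respiratory chain genes the shortest bin still stood at 0.45 and 0.38 (69 genes). Exonic length gave a like order, from 0.69 and 0.64 for 85 genes under 1 kb to -1.09 and -1.12 for 699 genes over 8 kb. The measures overlap, and within genes of 20 to 100 kb span the medians were 0.26 and 0.19 for exonic lengths under 3 kb (123 genes), -0.20 and -0.25 for 3 to 6 kb (360 genes) and -0.77 and -0.80 above 6 kb (601 genes). Among genes with more than 6 kb of exons they were -0.53 and -0.50 under 20 kb span (105 genes) and -1.28 and -1.18 above 100 kb (313 genes). The ratio thus fell along exonic length within the 20 to 100 kb span, and along span among genes with more than 6 kb of exons. Among genes with under 3 kb of exons it was not ordered by span throughout, at 0.46 and 0.44 under 20 kb (677 genes), 0.26 and 0.19 from 20 to 100 kb, and 0.30 and 0.24 above 100 kb (8 genes). In endothelial pieces the 25 genes over 200 kb had medians of -1.24 and -1.15, and the 27 genes under 2 kb of 0.50 and 0.16. Without ribosomal protein and respiratory chain genes the latter stood at 0.02 and -0.41 (18 genes), against -0.21 and -0.05 for the 64 genes of 2 to 5 kb, so the short end was then not higher in both libraries. In astrocyte pieces 375 genes over 200 kb had medians of -1.33 and -1.47 and 125 genes under 2 kb of 0.73 and 0.80.

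**Figure D5:**
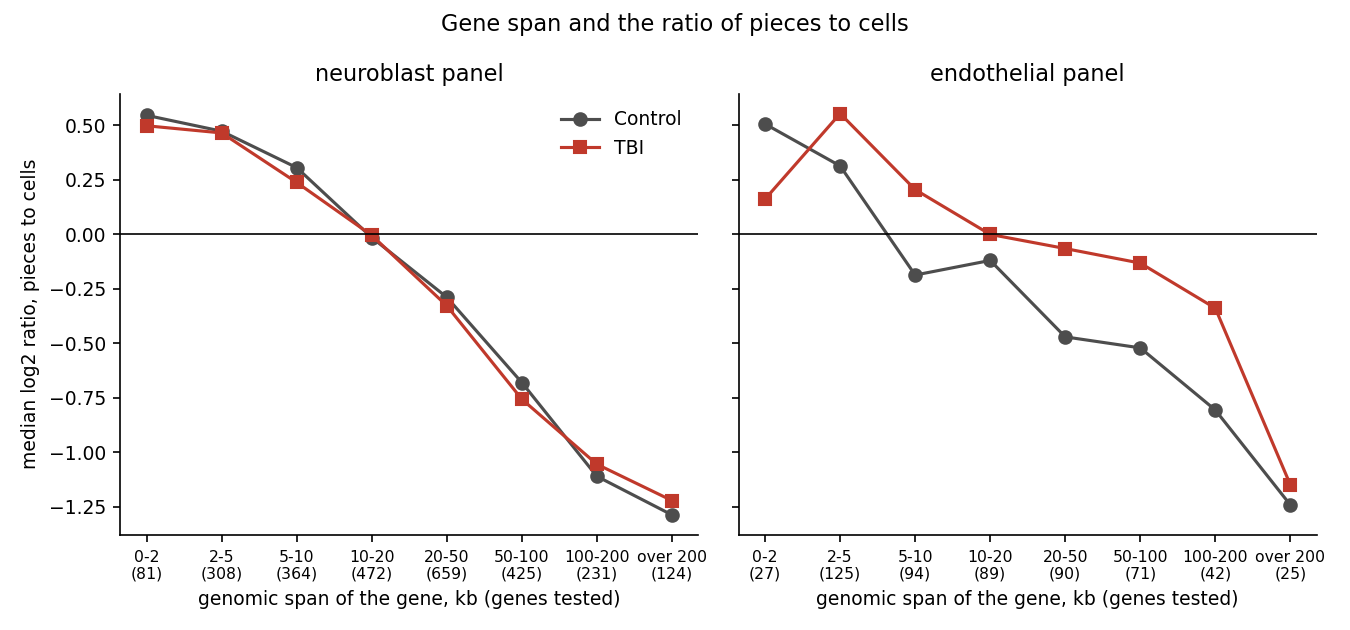
Median log2 ratio of pieces to cells by the genomic span of the gene (protein-coding genes, bins in kb, number of genes tested in brackets), Control black and TBI red. In the neuroblast panel the medians go from 0.54 and 0.50 under 2 kb to -1.29 and -1.22 over 200 kb.

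Of 14 transporters of the endothelial list tested in endothelial pieces, 2 were lower and none higher, against 11.3% lower among all genes tested, with median log2 ratios of -0.68 in Control and -0.17 in TBI against -0.24 and 0.06 over all genes. The taurine transporter Slc6a6 had 27 and 39 UMIs, a ratio of 0.367 (0.242 to 0.536) and 0.365 (0.259 to 0.4997), and the glucose transporter Slc2a1 41 and 73 UMIs, a ratio of 0.677 (0.484 to 0.921) and 0.736 (0.576 to 0.928). None of 19 receptor and junction genes was called. Bsg, the surface glycoprotein basigin, had 369 and 903 UMIs and ratios of 0.655 (0.590 to 0.726) and 1.10 (1.02 to 1.17), and Itm2a stood at 0.532 (0.420 to 0.666) and 0.976 (0.853 to 1.11). The Control ratios of Bsg and Itm2a lay lower than their TBI ratios. In Control 5970 of the 39147 UMIs of endothelial pieces were hemoglobin mRNA of a single barcode. Without barcodes of over 1% hemoglobin the ratios of Bsg were 0.790 (0.711 to 0.876) and 1.10 (1.02 to 1.17) and those of Itm2a 0.612 (0.480 to 0.769) and 0.973 (0.851 to 1.11). The median over the 437 genes then tested was 0.02 in Control and 0.08 in TBI, with 4 genes higher and 47 lower.

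The 2 genes called higher in endothelial pieces were Rgs5 and Tmsb10. Rgs5, a regulator of G-protein signalling that marks pericytes, had 54 UMIs in 7 of 29 Control pieces and 102 in 18 of 57 TBI pieces, a ratio of 3.20 (2.38 to 4.23) and 2.73 (2.21 to 3.34). The most in a single piece were 15 and 12, and against cells in the depth range of the pieces the smaller log2 ratio of the libraries was -0.026, so the gene was then no longer higher. Of the 9 mural cell markers Rgs5 was the most abundant, Vtn had 16 and 15 UMIs, Higd1b 8 and 9, Pdgfrb 1 in each library, and Kcnj8 and Acta2 0 in both, and their part in the ratio of Rgs5 was not tested. The 9 markers summed to 2431 CPM in Control and 2324 in TBI pieces, against 720.2 and 1462 in the endothelial cells. Tmsb10, a small actin-binding peptide, had 99 and 167 UMIs and ratios of 2.16 (1.75 to 2.65) and 2.85 (2.42 to 3.34), and its relative Tmsb4x reached 1.53 and 1.86. Summed astrocyte markers stood at 594 CPM in Control pieces and 540 in Control cells but at 2551 in TBI pieces and 689 in TBI cells, led by Slc1a2 with 70 of their UMIs, 51 of them in 1 TBI piece.

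Against cells in the depth range of the pieces the endothelial calls shifted to 39 of 485 genes tested higher and 27 lower. Thus 59.1% of the called genes were higher where 3.03% were among all cells, and only 9 Control and 34 TBI cells fell in that range. Of the 28 genes called in the first comparison and tested in the second, 17 were called again, and 5 of 7 immediate early genes tested were lower, beside 27 of all 485. In the neuroblast panel, with 80 Control and 50 TBI cells in the range, 306 of 330 genes were called again.

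Marker genes of other cell types were sparse in neuroblast pieces. Summed astrocyte markers stood at 510 CPM in Control and 389 in TBI pieces against 1069 and 1001 in cells, and oligodendrocyte markers at 286 and 262 against 621 and 1073. Microglia markers had 0 and 2 UMIs. Cycling progenitor markers were present, at 915 and 561 CPM against 1258 and 761 in the cells, and Cenpf, a kinetochore protein gene, was called lower at 0.460 and 0.283, while Top2a stood at 0.773 and 0.999.

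Most of the low-nuclear barcodes carried astrocyte markers rather than either panel. The astrocyte group held barcodes outside both panels with at least 0.5% of UMIs from 8 astrocyte markers such as Slc1a3, Aldoc and Aqp4. Barcodes with another marker list at that level were left out, but not all of those with radial glia-like markers. Of the 41 Control and 49 TBI pieces with radial glia-like markers at that level, 0 and 1 lay outside the 3 groups. In the astrocyte group 236 of 837 barcodes in Control (28.2%, 25.2 to 31.4) and 267 of 764 in TBI (34.9%, 31.6 to 38.4) were pieces. The ratio of TBI to Control was 1.24 (1.07 to 1.43), above 1 where the neuroblast ratio was below it. The direction depends on the definition: with the barcodes left out for another marker list included, the shares were 23.2% and 20.8%, a ratio of 0.895 (0.768 to 1.04). This group was defined after the values of the first 2 were seen. The median astrocyte piece held 2179.5 UMIs in Control and 1379 in TBI against 4381.5 and 3460 in the cells, and 13.7% and 12.1% mitochondrial UMIs against 8.93% and 7.88%. The rule RNAs made up 14.3% and 15.0% of all UMIs in these cells, the highest of the 3 groups, and 0.0515% and 0.0599% in the pieces.

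In the astrocyte group 6486 genes were tested, of which 378 (5.83%) were higher and 1817 (28%) lower. The median piece held 0.497 of the cells' median UMIs in Control and 0.399 in TBI. No comparison with cells in the depth range of the pieces was made here, so the part of depth in these values was not tested. Among the lists, respiratory chain genes had the most on the higher side, with 61 of 78 called higher and none lower (medians 1.37 and 1.35), against -0.42 and -0.47 over all genes. The highest genes by the fixed rule included Aldh1a1, a retinaldehyde dehydrogenase, with 198 and 149 UMIs and ratios of 4.71 (3.83 to 5.80) and 6.30 (4.77 to 8.36). Gstm5, a glutathione transferase, reached 3.53 and 3.72 and Chchd10, a mitochondrial intermembrane protein, 3.30 and 3.54. The splicing list was lower in 14 of 15 genes, with medians of -3.19 and -2.87. Among the lowest, at 0 UMIs in the pieces of both libraries, were the noncoding AI480526 (at least 30.4- and 19.4-fold lower) and Lncpint (13.7 and 10.0). Of 8 immediate early genes tested, 4 were lower, and Fos had 3 UMIs in Control and 16 in TBI, a ratio of 0.0193 (0.00397 to 0.0566) and 0.256 (0.144 to 0.425). These intervals did not overlap, and how many of all genes tested shared this was not counted.

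The 3 groups of pieces shared a set of low genes. Of 363 genes tested in all 3 groups, 13 were lower in all and none was higher in all. They were Fos, Junb and Btg2 of the immediate early list, the splicing-related Clk1, Pnisr, Luc7l2, Rsrp1 and Rbm39, the methionine adenosyltransferase gene Mat2a, the chromatin regulator Kmt2e, the transcription factor Zbtb20, the amino acid transporter Slc38a2 and the adaptor gene Sorbs2. Of the genes tested in the neuroblast and endothelial panels together (369), 18 were lower in both, which was 46.2% of the 39 lower in neuroblast and 56.2% of the 32 lower in endothelial pieces. No gene was called in opposite directions in these 2 panels, but only 3 of the 369 genes were called higher in neuroblast and 1 in endothelial pieces. With so few higher genes, neither this nor the lack of a gene higher in all 3 groups says much.

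Between the libraries, the pieces of a panel differed in few genes. Of 1083 genes tested in neuroblast pieces, 3 (0.277%) were at least 2-fold higher and 17 (1.57%) at least 2-fold lower in TBI. Pclaf, a PCNA-binding protein of S phase, had 129 UMIs in 8 Control pieces and 15 in 3 TBI pieces, a ratio of 0.167 (0.0910 to 0.286), where the cells gave 0.756. Hist1h2ae, Pbk and Rrm2, also genes of dividing cells, had ratios of 0.178, 0.268 and 0.294, where the cells gave 0.445, 0.548 and 0.668. Of the TBI UMIs, 13 of 15 of Hist1h2ae and all 11 of Pbk were in 1 piece. The counts of Pclaf rest on few pieces, with up to 27 UMIs in 1 Control piece. Tac2, a tachykinin precursor, had 62 UMIs in 19 Control pieces and 134 in 25 TBI pieces, a ratio of 3.11 (2.28 to 4.27) against 1.38 in the cells, and 33 of the TBI UMIs were in 1 piece. In the endothelial pieces 9 of 241 genes (3.73%) were higher and 4 (1.66%) lower in TBI, and those 4 were the hemoglobin genes Hbb-bs, Hbb-bt, Hba-a1 and Hba-a2. Without hemoglobin-rich barcodes 5 were higher and 1 lower, and the same counts were found without doublets. The highest ratios were those of the glutamate transporter Slc1a2 at 5.41 (2.60 to 13.02) and Apoe at 2.98 (2.06 to 4.43), both astrocyte genes, of whose TBI UMIs 51 of 70 and 42 of 169 were in 1 piece, then Itih5 at 2.83 and Adgrl4 at 2.76. In the astrocyte pieces 7 of 2954 genes (0.237%) were higher and 22 (0.745%) lower in TBI. With 1 library per condition these ratios have no replicate check.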

How the data were processed

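Gene counts of each library were deposited as UMI counts per gene and barcode, made by the authors with Cell Ranger 3.0.2 (named in the submitters' processing notes, as is the build GRCm38), with no normalization. The tables precede the authors' filter on RNA content, whose limits are not given in the sources used here, and their clustering without Malat1. Tables carry no condition. Each was assigned to Control or TBI because all 356 Control and 320 TBI barcodes named in the study's supplementary lists, held here only in part, were found in the table of that condition and 0 in the other.

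Barcodes with at least 200 genes were kept, with no mitochondrial limit. Shares of UMIs, medians and summed UMIs per 1000000 UMIs were computed in Python 3.11.15 (numpy 2.4.6, scipy 1.17.1, pandas 2.3.3, scanpy 1.11.5). Doublets were called with Scrublet in scanpy at 0.8% per 1000 barcodes and left in. Gene positions and lengths came from GENCODE vM21, with span from first to last base and exonic length as the union of exons, and matched by gene ID for 2685 of 2686 genes tested in neuroblasts and 566 of 566 in endothelium. Length bins hold protein-coding genes only. UMIs remove PCR copies, and intervals cover counting error only.

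Genes are named by rule: the 12 highest and 12 lowest called genes of a panel by the smaller absolute log2 ratio of the 2 libraries (genes at 0 UMIs in both ranked by pooled UMIs), the 4 most abundant tested genes of a list, and the 4 highest and 4 lowest TBI to Control ratios among genes with at least 50 UMIs. Others were named after their values were seen. Some genes that the rule names are not reported here. The members and lists were chosen with earlier results of these data known, and the astrocyte group after seeing values. Alternatives changed the limits, RNAs, depth, scale and filters.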

Additional observations from a re-analysis of the deposited data

Results flagged for a closer look

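The ratios of hemoglobin mRNA in endothelial pieces to cells went opposite ways in the libraries, which rests on 1 Control droplet. The ratio of pieces to cells was 17.6 in Control and 0.00963 in TBI for Hbb-bs, 18.9 and 0 for Hba-a1, and 19.4 and 0 for Hba-a2. Each was higher in pieces than in cells in the Control library and lower in the TBI library, and this difference was not tested. A single Control barcode of 6520 UMIs held 5970 hemoglobin UMIs (91.6%), with a nuclear RNA share of 0.0153%. These were all the UMIs of Hbb-bs, Hbb-bt, Hba-a1 and Hba-a2 in the Control endothelial pieces, and the other pieces of that group held none of them. The part of this barcode in the endothelial ratios is given by the values without barcodes of over 1% hemoglobin.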

How the results depend on the processing

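Most values stayed within their counting interval or within 1.5 times under the alternatives: of the shares, ratios and counts that answer a comparison, 200 did, 56 moved and 4 reversed. The remaining values were those of single genes, the counts of the other gene lists and the astrocyte shares. Of these 409 stayed so or kept their call and 37, none of them a single gene, moved. Among the single genes 15 were no longer called and 1 reversed. Requiring 0 UMIs of the 4 RNAs without Malat1 gave pieces in 20.4% of Control and 22.1% of TBI barcodes, 12.1% and 17.1% of neuroblast and 24.9% and 29.7% of endothelial barcodes, and reversed the ratio of TBI to Control to 1.08 over all barcodes and 1.41 in neuroblasts, while the endothelial ratio crossed 1 to 1.19 within its interval. The astrocyte ratio reversed to 0.895 when the barcodes left out for another marker list were included. With the TBI share of each group weighted by the Control numbers of barcodes the ratio over all barcodes reversed to 1.05. This reversal rests on the astrocyte group as first defined, the only group with a higher share in TBI. The first alternative dropped Malat1 and changed the limit to a count of 0 together, and the cause was not tested. A minimum of 2000 UMIs gave 7.99% and 3.24% of all and 1.17% and 0.524% of endothelial barcodes, with ratios of 0.405 and 0.448. A limit of 0.1% gave 9.35% and 6.25% of all and 6.40% and 5.39% of endothelial barcodes, a limit of 0.5% gave 9.51% of TBI barcodes, 500 genes gave 7.42% of TBI barcodes, and doubled panel limits gave 2.52% and 1.92% of neuroblast barcodes. Against cells between the lowest and the highest decile of the pieces' UMIs the ratio of median UMIs was 0.565 in Control and 0.889 in TBI neuroblasts and 0.604 and 0.809 in endothelium, that of the ribosomal protein share 1.73 and 1.99, and 2.60 and 1.90, and that of the mitochondrial share 1.18 in TBI endothelium. That setting gave 88 of 2507 neuroblast genes higher, and 39 of 485 endothelial genes higher and 27 lower, with 5 immediate early and 1 splicing gene lower, and the log2 ratio of Rgs5 reversed to -0.026. The number of higher neuroblast genes was 2 with only the rule RNAs out of the total, 54 under median scaling, 3 with 30 expected UMIs and 15 as a mean over barcodes. With 5 expected UMIs 982 of 5031 neuroblast and 156 of 1343 endothelial genes were lower and 4 endothelial genes higher. With 30 expected UMIs 92 of 760 and 15 of 162 were lower and 1 endothelial gene was higher. The lower ones included 6 splicing and 5 immediate early genes in neuroblasts and 0 splicing genes in endothelium, because fewer genes were tested. In the endothelial panel 3 splicing genes were lower without doublets, under the 0.1% limit and without hemoglobin-rich barcodes, and 0 and 4 genes were higher in the last 2. Between TBI and Control endothelial pieces, 5 genes were higher and 1 lower without doublets, and the same counts were found without hemoglobin-rich barcodes. The removal of hemoglobin-rich barcodes, the doublet removal in this last comparison, the weighting by Control numbers and the wider astrocyte group were chosen after seeing the data. The cause of these shifts was not tested unless given. No paired analysis was possible because the animals of each condition were pooled into 1 library. Depth limits the endothelial pieces most, where 566 genes could be tested against 2686 in neuroblast pieces.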

Other observations

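Pieces outside the 3 groups numbered 42 of 1114 barcodes in Control (3.77%) and 52 of 2196 in TBI (2.37%). Barcodes with microglia markers were often pieces, 14 of 35 in Control (40%) and 21 of 84 in TBI (25%), whereas barcodes with oligodendrocyte markers seldom were, 6 of 596 (1.01%) and 8 of 1130 (0.708%). No marker list reached its limit in 12 Control and 10 TBI pieces.

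Some members were as deep as whole cells. The deepest Control member held 25650 UMIs and 4389 genes without a single UMI of the 5 rule RNAs, and belonged to none of the 3 groups. The deepest TBI member held 13124 UMIs and 3303 genes with 2 rule UMIs. A second hemoglobin-rich Control member, with 12576 UMIs of which 94.9% were hemoglobin, had 229 genes and passed neither panel.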
